A study of Mus musculus with 4 samples.

Results

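The 10 genes described here are the trefoil factors Tff1, Tff2 and Tff3, the mucins Muc1, Muc5ac and Muc6, and the gastric-type genes Gkn1, Ctse, Agr2 and Anxa10. They were chosen by name, among 36918 gene names on the array, and are read by 12 of the 56304 probes kept. Expression was measured on 4 one-colour Agilent arrays of mouse pancreatic cancer cells of strain C57BL/6. The cells called K6 and K5 each gave 1 sample exposed to halofuginone, a blocker of prolyl-tRNA charging by the synthetase Eprs, at 100 nM over 24 hours, and 1 control sample with DMSO. The title of the series places the work in the study of Nrf2 and gemcitabine response, and its design asks what halofuginone changes in each line. How K6 differs from K5, which alleles drive the tumour cells and whether each is a clone are not given in the sources used here, so both are called lines. Samples with F in the design text and H in the titles were read as the same. No source says whether separate cultures were used. The p-values rest on how far the changes of K6 and K5 differ and on a variance pooled over genes. They do not measure the spread between replicates of a line and condition.

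Trefoil factors are small secreted peptides held by disulfide bonds. They are made together with mucins, and they help a mucosa to close after injury. In the stomach, surface pit cells make Tff1 with the gel-forming mucin Muc5ac, deeper neck and gland cells make Tff2 with Muc6, and Tff3 is typical of goblet cells. Pancreatic intraepithelial neoplasia (PanIN), the precursor lesion of ductal cancer, takes on a gastric-type mucous programme of this kind, with Tff1, Muc5ac, Gkn1 and Ctse among its known genes.

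Each array carried 59305 spots other than controls, none saturated, and the share well above background was 54.0% and 53.1% on the halofuginone arrays of K6 and K5, against 48.6% and 47.2% on their control arrays. Log2 signals are given relative to the 75th percentile of each array, so that 0 is a signal equal to that percentile. Levels of different probes are not compared. A gene entered the test where 2 or more arrays read its probe well above background, which held for 19093 genes and for 8 of the 10 here. Gkn1 and Agr2 did not, and they are given by array. Precision is limited by there being only 4 arrays, and a change within a line sets 1 array against 1 and has no test. Probes spotted at least 5 times on an array had a median SD between spots of 0.0332 to 0.0467 on the log2 scale, which covers the array alone and not the samples. Of 11 epithelial and ductal markers, 10 were well above background on all 4 arrays, among them the keratins Krt8, Krt18, Krt19 and Krt7. Fewer cells of a type and less RNA per cell cannot be told apart in these bulk samples.

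The probes are 60 bases long and their positions are those of the array files, on mm9. Those of Tff3, Tff2 and Tff1 lie in that order within 36.3 kb of chromosome 17, from position 31262279 to 31298530. Those of Muc6 and Muc5ac lie 182 kb apart on chromosome 7, from 148822365 to 149004852. The others lie at chr1:133571990-133572049 (Ctse), chr6:87295866-87295925 (Gkn1), chr12:36730506-36730565 (Agr2) and chr8:64536504-64536563 (Anxa10). The ends of the Tff2 probe, at chr17:31279256-31280080, are 825 bases apart, and those of the Muc1 probe, at chr3:89036007-89036974, are 968 bases apart. Both therefore join sequence from more than 1 exon, so genomic DNA holds no unbroken match to them, and they are shown for this. The Tff2 and Muc1 changes rest on 1 probe each, as do those of Tff1, Tff3, Ctse, Muc5ac and Muc6. The 2 sequences are written as the array files give them.
Tff2 probe: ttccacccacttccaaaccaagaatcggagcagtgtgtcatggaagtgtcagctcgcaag
Muc1 probe: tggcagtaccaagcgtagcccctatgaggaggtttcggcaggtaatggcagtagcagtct

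Promoter sequences from RefSeq (GRCm38.p6, a build other than that of the probes) were at hand for 5 of the 10 genes, Muc1, Muc6, Gkn1, Agr2 and Anxa10. The 250 bases before the start of Muc1, which fell after halofuginone, and of Anxa10, which did not pass the test, are shown as an example of a gene that passed and of one that did not. They lie at chr3:89228806-89229055 on the plus strand and chr8:62123194-62123443 on the minus strand. Capitals mark the matches to the motifs named below.
Muc1 promoter: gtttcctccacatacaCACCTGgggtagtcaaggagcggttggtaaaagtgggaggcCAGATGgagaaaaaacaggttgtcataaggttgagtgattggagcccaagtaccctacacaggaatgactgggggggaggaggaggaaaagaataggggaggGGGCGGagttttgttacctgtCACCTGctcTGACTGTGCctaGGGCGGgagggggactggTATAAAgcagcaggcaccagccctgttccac
Anxa10 promoter: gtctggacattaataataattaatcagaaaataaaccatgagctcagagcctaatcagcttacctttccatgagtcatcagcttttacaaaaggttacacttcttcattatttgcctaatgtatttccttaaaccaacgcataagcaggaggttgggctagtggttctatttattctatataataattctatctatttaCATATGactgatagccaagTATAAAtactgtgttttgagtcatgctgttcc

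The motifs were searched on both strands. The antioxidant response element core TGACNNNGC, to which Nrf2 binds with its partners, matched in Muc1 as TGACTGTGC, 61 to 53 bases before the start. It was in none of the other 4 windows, and 10.2% of 32851 mouse promoter windows hold it. Muc1 also held 2 GC boxes (GGGCGG, in 32.7% of windows), a TATA box (TATAAA, 12.4%) 31 to 26 bases before the start and 3 E-boxes (CANNTG, 66.2%). Anxa10 held a TATA box at 32 to 27 bases and 1 E-box. The Muc1 window was richer in G and C, at 54.8% against 33.6%, and no 2 of its matches overlapped. The GATA core AGATAA (9.99% of windows) was in Muc6 and Gkn1, the forkhead core TGTTTNC (17.8%) in Agr2, and the core of the element shared by C/EBP and ATF factors, TGATGNAA (3.45%), in none of the 5. No binding was measured here, and a match is a description of the letters only.

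After halofuginone, 5 of the 8 tested genes were lower and 0 were higher. All 3 trefoil factors fell, as did Muc1 and Ctse. In the fit over both lines the falls went from 3.08-fold for Ctse to 19.0-fold for Tff3, with Tff2 left out because one of its halofuginone arrays gives only a bound. Muc5ac, Muc6 and Anxa10 did not pass. The test was limma with the line as a block, with the Benjamini-Hochberg adjustment made across the whole set of 19093 tested genes. At an adjusted p under 0.05 it called 8.96% of them, 5.08% lower and 3.88% higher. The median log2 change of the 8 genes was -2.06, against 0.01 over all tested genes. The fit has 1 residual degree of freedom, so each SE leans on a variance pooled over genes. None of the 5 calls held in the fit with no line block, in the fit without a filter, or with the percentile taken over probes well above background on all 4 arrays. Signs were the same in these fits.

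**Figure D1:**
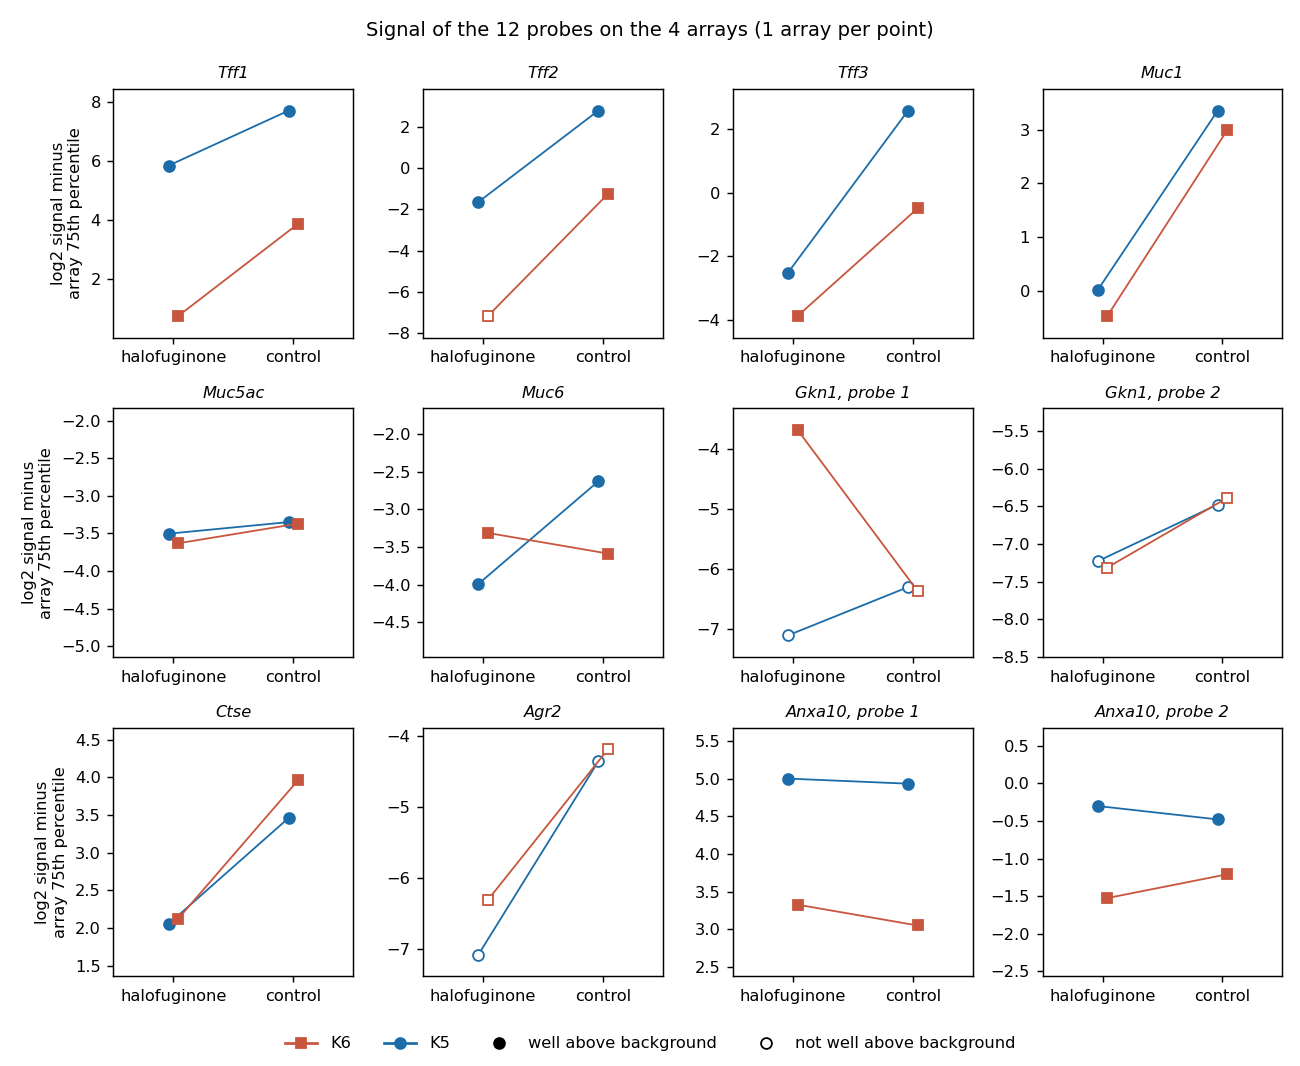
Log2 signal minus the 75th percentile of the array (vertical axis, a scale of its own in each panel) for the 12 probes, with halofuginone left and control right. Each point is 1 array, squares are K6 and circles K5, lines join the arrays of a line, and open symbols were not well above background. The trefoil factors, Muc1 and Ctse slope up towards control in both lines, Anxa10 is nearly level, and the lines of Muc6 cross.

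Tff2, the trefoil factor of neck and gland cells, fell whether its dim array was taken as read or raised to a floor. Its log2 signal was -7.16 in K6 and -1.65 in K5 after halofuginone, against -1.26 in K6 and 2.77 in K5 in control. Both halofuginone arrays lay below both control arrays, and the halofuginone K6 signal was not well above background. With that signal as read, Tff2 fell by 5.16 (SE 0.45, limma adjusted p = 0.036), a value that rests in part on the dim array. With dim values raised to a common floor it fell by 3.67 (SE 0.43), or 12.7-fold, and still passed (adjusted p = 0.023). It was 21.4-fold lower after halofuginone in K5 and at least 13.5-fold lower in K6, where only a bound can be given. With normexp background correction it fell by 3.33 (adjusted p = 0.00044). Over all genes the floored and normexp fits called more, 2506 and 4994 against 1710, so neither is a stricter test.

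Tff3, the goblet-type trefoil factor, was well above background on all 4 arrays. Its log2 signal was -3.88 in K6 and -2.51 in K5 after halofuginone, against -0.49 in K6 and 2.59 in K5 in control, so that the conditions did not overlap. Tff3 fell by 4.25 (SE 0.50, limma adjusted p = 0.039), or 19.0-fold, with a 95% interval of -5.64 to -2.85. The difference was 10.5-fold in K6 and 34.4-fold in K5. The change of Tff3 was larger in K5 and that of Tff1, given next, larger in K6, while for Tff2 the bound in K6 leaves this order unknown. These differences between lines use up the residual degree of freedom and were not tested.

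Tff1, the pit-cell trefoil factor, was bright on all 4 arrays, with 1380 and 50750 scanner units after halofuginone in K6 and K5 and 13000 and 144817 in their controls. Its log2 signal was 0.74 in K6 and 5.84 in K5 after halofuginone, against 3.87 in K6 and 7.71 in K5 in control. The conditions overlapped, since halofuginone K5 lay above control K6, and within each line the halofuginone array was the lower one, by 8.76-fold in K6 and 3.64-fold in K5. Tff1 fell by 2.50 (SE 0.41, limma adjusted p = 0.048), with a 95% interval of -3.63 to -1.36. This call lay close to the threshold. It was lost with quantile normalization and in the authors' deposited value table (adjusted p = 0.058 in each), and with probes of a gene averaged (0.051).

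Muc1, the membrane-spanning mucin of ductal cells, is the one of the 3 mucins that passed. Its log2 signal was -0.47 in K6 and 0.02 in K5 after halofuginone, against 2.99 in K6 and 3.35 in K5 in control. The conditions did not overlap, with 599 and 894 scanner units after halofuginone in K6 and K5 and 7083 and 7078 units in their controls. Muc1 fell by 3.40 (SE 0.26, limma adjusted p = 0.036), or 10.5-fold, with a 95% interval of -4.11 to -2.68. The changes in the lines were nearly the same size, 11.0-fold in K6 and 10.1-fold in K5.

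Muc5ac and Muc6, the gel-forming mucins of pit and gland cells, were dim but measurable, with 55.5 to 112 scanner units on the 4 arrays. Muc5ac had a log2 signal of -3.63 in K6 and -3.50 in K5 after halofuginone, against -3.37 in K6 and -3.35 in K5 in control. The fitted change was -0.21 (SE 0.26, limma adjusted p = 0.60), with a 95% interval of -0.92 to 0.51, which does not reach the size of change measured for Muc1. The lowest signals well above background were -5.01 and -4.92 on the halofuginone arrays of K6 and K5. A fall as large as that of Muc1 could therefore not have been read above background for Muc5ac. Muc6 had a log2 signal of -3.31 in K6 and -3.99 in K5 after halofuginone, against -3.59 in K6 and -2.63 in K5 in control. It was 1.21-fold higher after halofuginone in K6 and 2.57-fold lower in K5, the only tested gene of the 8 with changes of opposite sign, which 23.3% of all tested genes had. The fit over both lines gave -0.54 (SE 0.48, limma adjusted p = 0.47), with a 95% interval of -1.89 to 0.80.

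Ctse encodes cathepsin E, an aspartic protease of gastric surface cells that is also made in PanIN. Its log2 signal was 2.12 in K6 and 2.05 in K5 after halofuginone, against 3.96 in K6 and 3.46 in K5 in control. The 2 halofuginone arrays lay close together and below both control arrays. Ctse fell by 1.62 (SE 0.28, limma adjusted p = 0.0497), or 3.08-fold, with a 95% interval of -2.40 to -0.85. The adjusted p is at the threshold, and it was 0.053 with probes of a gene averaged.

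Anxa10, an annexin typical of gastric mucosa, was well above background on all 4 arrays and did not pass. On the probe used for the test its log2 signal was 3.33 in K6 and 5.001 in K5 after halofuginone, against 3.05 in K6 and 4.93 in K5 in control. The fitted change was 0.17 (SE 0.26, limma adjusted p = 0.67), with a 95% interval of -0.55 to 0.90, which holds neither the fall of Ctse nor those of Muc1 and the trefoil factors. A second probe, designed on a cDNA clone, was also well above background on all 4 arrays. It read 1.24-fold lower after halofuginone in K6 and 1.13-fold higher in K5, so the probes differed in sign in K6 by small amounts.

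Agr2, a disulfide isomerase of the endoplasmic reticulum needed for mucin folding, was dim, that is, not well above background, on all 4 arrays. Its scanner signal was 10.4 units in K6 and 6.52 in K5 after halofuginone, against 48.8 in K6 and 33.7 in K5 in control, and no fold is given for signals of this kind. Gkn1, a gastrokine secreted by pit cells, was well above background on 1 array. This was halofuginone K6, with a log2 signal of -3.68 (64.7 units), at least 1.49-fold above control K6. The second Gkn1 probe, for the same transcript, was dim on all 4 arrays, so the probes disagree on the presence of Gkn1.

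**Figure D2:**
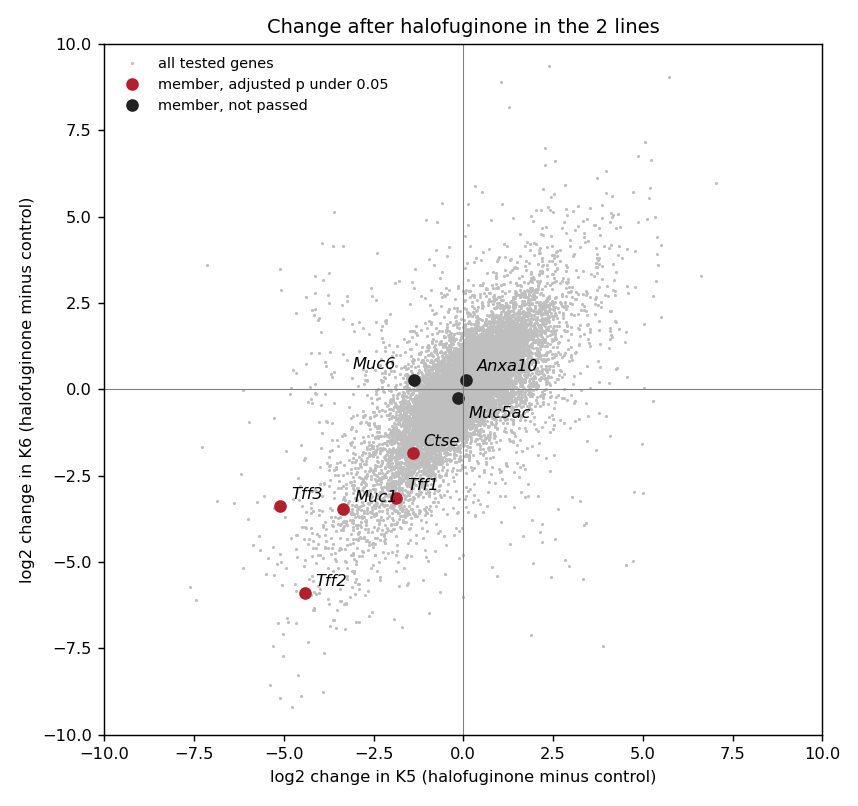
Log2 change, halofuginone minus control, in K5 (horizontal axis) and in K6 (vertical axis) for the 19093 tested genes (grey) and the 8 tested genes of the group (red, adjusted p under 0.05; black, not passed). The 5 red points sit in the lower left, where genes lower in both lines fall, and the K6 change of Tff2 rests on a halofuginone signal not well above background.

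Counted within the lines, 5 of the 8 genes were at least 2-fold lower after halofuginone in K6 and 6 of 8 in K5, against 16.4% and 14.9% of all tested genes. The same 5 that passed were at least 2-fold lower in both lines, a pattern that 9.62% of tested genes had. None was at least 2-fold higher in either line. The median log2 change of the 8 genes was -2.49 in K6 and -1.64 in K5, against 0.04 and -0.03 over all tested genes. Both halofuginone arrays lay below both control arrays for 5 genes, Tff2, Tff3, Muc1, Ctse and Muc5ac, which 28.6% of all tested genes did. None of the 8 had both halofuginone arrays above both control arrays, which 30.0% of all tested genes had.

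Between the lines, the trefoil factors and Anxa10 were lower in K6 than in K5 under both conditions, while Muc1, Muc5ac and Ctse read nearly alike. Of the 8 genes, 0 passed the limma test of K6 against K5, in which 0.115% of tested genes were called lower and 0.0576% higher in K6. An unadjusted p under 0.05 was found for 4 of the 8, against 15.5% of all tested genes. The median difference of the 8 genes was -1.10 on the log2 scale, against -0.03 over all tested genes. In this comparison the calls depended on the processing, from 0 genes of the 8 to 4 with normexp background correction.

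Tff1 and Tff2 differed most between the lines. Tff1 was 34.4-fold lower in K6 than in K5 after halofuginone and 14.3-fold lower in control, with a fitted log2 difference of -4.47 (SE 0.41, limma adjusted p = 0.057). Tff2 was at least 10.3-fold lower in K6 after halofuginone and 16.4-fold lower in control, with a fitted difference of -4.77 (SE 0.45, limma adjusted p = 0.058) that rests in part on the dim array. With dim values raised to the floor the difference of Tff2 was -3.28 (adjusted p = 0.066), and in that fit Tff1 passed (adjusted p = 0.041). Only 0.236% of tested genes had a lower difference than Tff1. Tff3 was 2.58-fold lower in K6 after halofuginone and 8.46-fold lower in control, with a fitted difference of -2.22 (SE 0.50, limma adjusted p = 0.20).

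Anxa10 was 3.19-fold lower in K6 than in K5 after halofuginone and 3.69-fold lower in control (fitted log2 difference -1.78, SE 0.26, limma adjusted p = 0.105). Its second probe read the same direction, 2.33-fold and 1.66-fold lower in K6. For Muc1 the fitted difference was -0.42 (95% interval -1.14 to 0.29), for Ctse 0.29 (-0.49 to 1.06) and for Muc5ac -0.07 (-0.79 to 0.64). Differences inside these intervals are not excluded by these fits, and none of the 3 intervals reaches the values of Tff1 or Tff2. At least 2-fold lower in K6 were 4 of the 8 genes after halofuginone and 4 in control, namely the trefoil factors and Anxa10, against 10.5% and 6.87% of all tested genes. They were the same 4 under both conditions, as 3.47% of tested genes were. None of the 8 was at least 2-fold higher in K6 under either condition, which 9.52% of tested genes were after halofuginone and 7.74% in control.

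**Figure D3:**
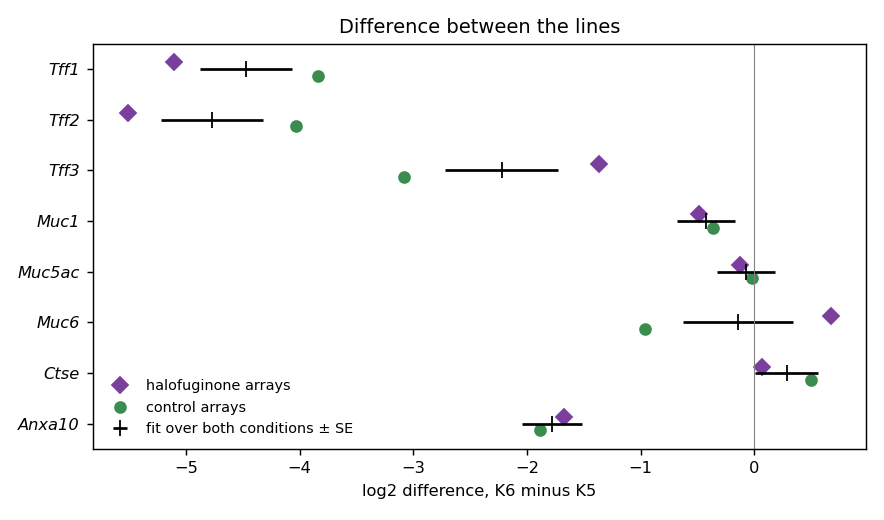
Log2 difference between the lines, K6 minus K5, for the 8 tested genes. Diamonds are the halofuginone arrays, circles the control arrays, and the bar is the fit over both with its SE. The trefoil factors and Anxa10 lie left of 0 under both conditions, and the Muc6 points lie on opposite sides of it.

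The order of the 4 arrays took several forms. For Tff1 and Anxa10 both K6 arrays lay below both K5 arrays, as they did for 14.8% of all tested genes. For Muc1, Tff3, Tff2, Ctse and Muc5ac both halofuginone arrays lay below both control arrays. The conditions of a line lay within 0.28 of each other on the log2 scale for Anxa10. Muc6 followed neither, with halofuginone K5 lowest and control K5 highest. With 1 array in each place, neighbours in these orders have no spread of their own to be set against.

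The genes on either side of the trefoil factors on chromosome 17 did not pass the test. Abcg1, a lipid transporter whose probe lies at -27.1 kb from that of Tff2, on the Tff3 side, had a log2 change of 0.60 (SE 0.30, limma adjusted p = 0.24). Tmprss3, a membrane serine protease 36.8 kb away on the Tff1 side, had 0.80 (SE 0.32, adjusted p = 0.18). Neither passed, and both were above 0 in both lines. Further out, Ubash3a, not well above background in control, read 0.37 and, with dim values raised to the floor, -0.47, and Slc37a1 -1.003 (adjusted p = 0.099), and Rsph1 was dim on all 4 arrays. Of the 7 tested neighbours of the trefoil and secreted mucin clusters, 0 passed, with a median change of 0.52 in limma, and 2 of them had an unadjusted p under 0.05, against 34.1% of all tested genes. In the mucin cluster, Muc2 and Muc5b were dim on all 4 arrays.

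**Figure D4:**
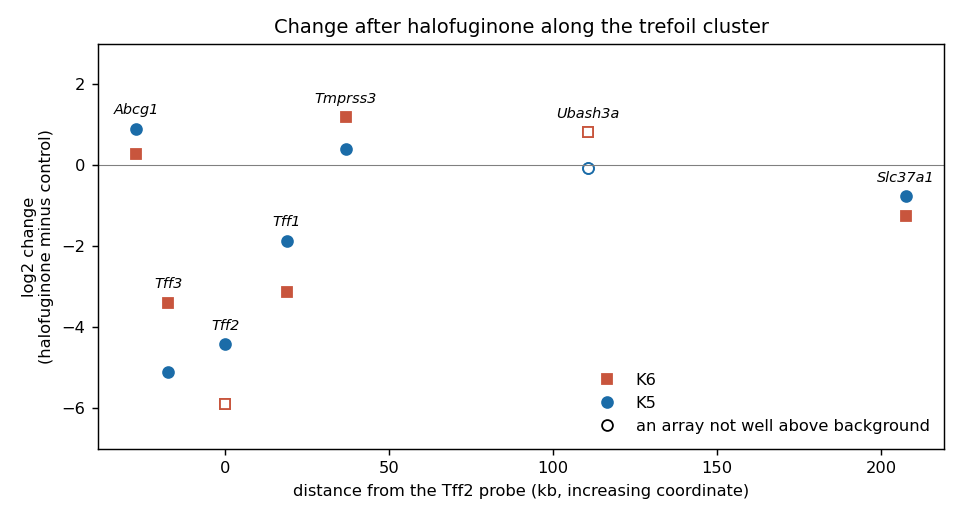
Log2 change, halofuginone minus control, against the distance of each probe from the Tff2 probe in kb, for the trefoil factors and their tested neighbours (squares K6, circles K5, 1 array against 1 each). Open symbols rest on an array not well above background. The 3 trefoil factors lie between -1.86 and -5.90, below every neighbour drawn, the lowest being the K6 change of Tff2 with its dim array as read.

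The other genes of the mucous and gastric programme were counted from lists, to be read beside the 5.08% of all tested genes called lower and the 3.88% called higher. Of the other mucins, 3 of 10 on the array were tested. Muc4, a membrane mucin known from human pancreatic cancer, fell by at least 3.63-fold (limma adjusted p = 0.039), being well above background in neither halofuginone sample and in both control samples. With dim values raised to the floor this call was lost (adjusted p = 0.22). Muc4 entered the test through its control arrays alone, so only a fall could be called for it. Muc13, not well above background in halofuginone K5, read -1.81 (SE 0.56, adjusted p = 0.12). With that signal raised to the floor it read -1.24 (adjusted p = 0.069). Muc20 read 0.28 (adjusted p = 0.50). The other 7 mucins on the array were well above background on fewer than 2 arrays, 6 of them on none.

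Among other genes of gastric and classical-type pancreatic cancer, 10 of 24 tested fell, against 5.08% of all tested genes, and 0 rose. The median change was -1.86, against 0.01 over all tested genes. Tm4sf20, a transmembrane protein of the L6 family, was well above background on 1 of the 2 halofuginone arrays. As read it fell by 6.98 (SE 0.84, limma adjusted p = 0.039), with log2 changes of -5.40 in K5 and -8.57 in K6. With its dim K6 signal raised to the floor it fell by 5.77 (SE 0.31, adjusted p = 0.019). The floor brings the changes of the lines together, to -5.40 in K5 and -6.15 in K6, and so lowers this SE. Vsig1, an adhesion protein of gastric epithelium, fell by 5.13 (SE 0.81, adjusted p = 0.047), with log2 changes of -3.60 in K5 and -6.67 in K6. Its halofuginone K6 signal, -4.96, lay near the lowest signal well above background on that array, -5.01. Bcas1 fell by at least 14.6-fold, and Cym, the gastric protease chymosin, by at least 4.18-fold (adjusted p = 0.036 for both), with both halofuginone arrays not well above background. With dim values raised to the floor Bcas1 still passed (adjusted p = 0.024) and Cym did not (0.056). Both entered the test through their control arrays alone, so only a fall could be called for them, and both are among the 10. Lgals2, a galectin, fell by 3.46 (SE 0.35, adjusted p = 0.037). Gkn2, the gastrokine neighbour of Gkn1 and named after its values were seen, fell by 2.90 (SE 0.35, adjusted p = 0.039) and was well above background on all 4 arrays, unlike Gkn1.

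Of 20 tested enzymes that build mucin O-glycans, 0 passed, with a median of -0.34 and 7 at an unadjusted limma p under 0.05, a share near the 34.1% of all tested genes. Galnt12, which starts O-glycan chains, had the largest change at -1.84 (SE 0.41, adjusted p = 0.07). The disulfide and mucous endoplasmic reticulum genes had a median of -0.43 over 12 tested. There 1 rose, Pdia2, a disulfide isomerase, which was at least 1.77-fold higher (limma adjusted p = 0.038) and not well above background in either control sample. This call was lost with dim values raised to the floor (adjusted p = 0.12). Pdia2 entered the test through its halofuginone arrays alone, so only a rise could be called for it. Of the mucous-cell transcription factors, 2 of 19 fell, against 5.08% of all tested genes, with a median of -0.47. Pdx1, the pancreas and antrum homeobox factor, fell by 1.69 (SE 0.27, adjusted p = 0.048). Ehf, an epithelial ETS factor, was measured on 1 of 2 halofuginone arrays and as read fell by 4.58 (SE 0.76, adjusted p = 0.048). With the dim array raised to the floor it fell by 3.61 (SE 0.33, adjusted p = 0.019), an SE again lowered in part by the floor. Spdef, the goblet and mucous-neck factor, named for its role, read -1.30 (SE 0.78, adjusted p = 0.31). Its log2 changes were of opposite sign, -2.76 in K5 and 0.16 in K6, and its control K6 signal was not well above background.

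Relatives of Anxa10 and Ctse were mixed. Of 11 annexins other than Anxa10, 1 fell, Anxa13, by 3.17 (SE 0.27, limma adjusted p = 0.036), and the median was 0.38. Anxa13 was also counted above among the gastric and classical-type genes that fell. Among 4 tested aspartic peptidases other than Ctse, Cym fell, the same call as above, lost with dim values raised to the floor. Bace2, which cleaves membrane proteins, fell by 3.74 (SE 0.30, adjusted p = 0.036). Ctsd, the lysosomal relative of Ctse and named for that, read -0.01 (SE 0.32, adjusted p = 0.99). Of 5 tested binding partners of trefoil factors and mucins, 1 fell, the receptor kinase Erbb3, by 2.61 (SE 0.31, adjusted p = 0.039). In the comparison of K6 with K5, 0 genes of these 9 lists passed limma, and 25 of 105 entries, with some genes on more than 1 list, had an unadjusted p under 0.05, against 15.5% of all tested genes.

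**Figure D5:**
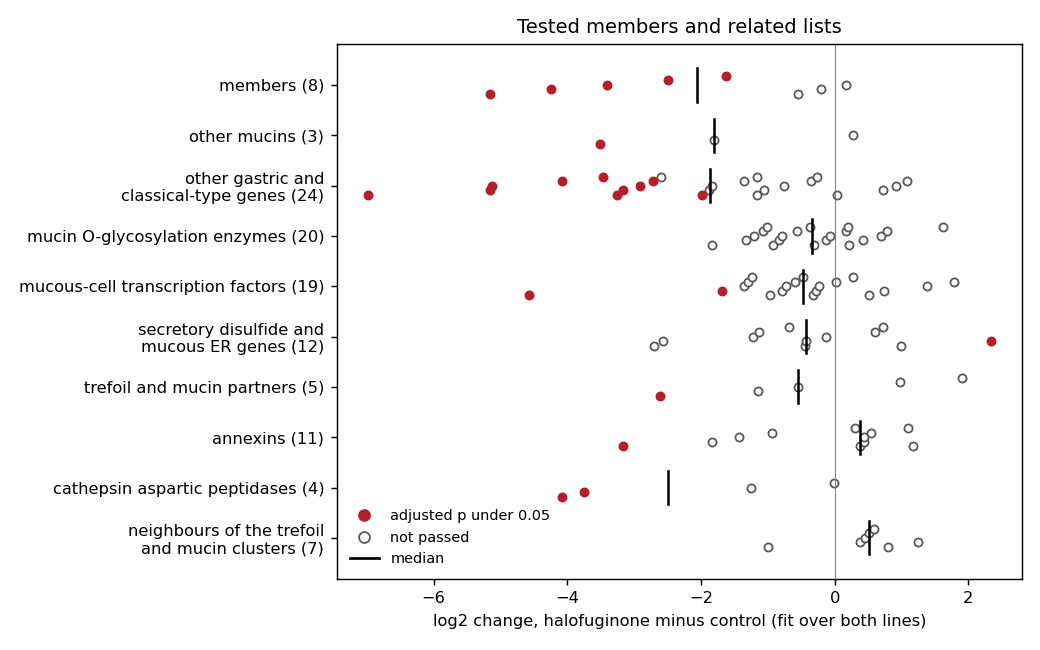
Log2 change, halofuginone minus control, in the fit over both lines for the tested genes of the group and of 9 related lists, with the number tested in brackets. Red points passed at an adjusted p under 0.05, open points did not, and the bar is the median. The group and the other gastric genes have medians of -2.06 and -1.86, while O-glycosylation enzymes sit near 0 at -0.34. Tff2 and 20 of the other points, among them Bcas1, Cym, Muc4, Tm4sf20, Ehf and Pdia2, are drawn at fitted values that rest in part on arrays not well above background.

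Markers of other cell types were read beside these changes. Of the 11 epithelial and ductal markers 0 passed limma and 1 had an unadjusted p under 0.05. They had a median change of -0.07 and a summed level, in multiples of the 75th percentile, of 981 and 968 on the halofuginone arrays of K6 and K5, against 700 and 910 in control. Of the parietal and chief cell markers 4 of 5 were tested and Cym fell, again the same call, lost with dim values raised to the floor. The pepsinogen Pgc was dim on all 4 arrays, as were the goblet markers Muc2, Fcgbp and Zg16. Immune markers were tested for 6 of 8 and 2 fell, Cd14 and Cd68, with summed levels of 10.5 and 14.1 on the halofuginone arrays of K6 and K5, against 28.8 and 31.7 in control. Cd14 alone gave 0.997 and 2.89 of these after halofuginone in K6 and K5, against 16.3 and 19.2 in control. Ptprc, the pan-leukocyte marker, was well above background on all 4 arrays and read 0.61 (SE 0.34, limma adjusted p = 0.28). Of the 6 tested immune markers, 5 were lower in both lines and 1, Ptprc, was higher in both, with a median change of -0.99. Acinar markers summed to 0.668 and 0.944 after halofuginone against 2.80 and 4.06 in control, with 4 of 11 tested and Cela1 fallen. Cela1 alone made up 51.8% to 86.0% of these sums. Of 8 fibroblast markers 2 were tested, with 0 at an adjusted p under 0.05 and 0 at an unadjusted limma p under 0.05. Their sums of 9.33 and 11.8 after halofuginone, against 15.9 and 17.7 in control, were at least 96.9% Acta2. Pdgfra, not well above background on either K6 array, read 0.51 (limma adjusted p = 0.24). With dim values raised to the floor it read 0.24 (adjusted p = 0.58). Endocrine markers were tested for 1 of 5 and endothelial ones for 1 of 5, of which Kdr rose, a call lost with dim values raised to the floor (adjusted p = 0.12). The part of such cells in the changes above was not tested.

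By the root mean square difference over the 4 arrays, after each gene was centred on its own mean, the genes most like Tff1 were Sparc (0.265) and Zfp467 (0.306), and those most like Tff2 were Gstm2 (0.519) and Pamr1 (0.535). Tff3 was nearest to Tmigd1 (0.340) and Gstm7 (0.407). Tff2, Gstm2 and Pamr1 were each well above background on 3 of the 4 arrays, and Zfp467 and Gstm7 on 2, so these likenesses rest in part on dim signals. Muc1 was nearest to Anxa13 (0.128) and Nsdhl (0.133), and Ctse to Ormdl2 (0.0337) and Slc37a3 (0.0455). Muc6 was nearest to Lgi4 (0.0505) and 5430421N21Rik (0.0648), Muc5ac to an Ensembl transcript with no symbol (0.00514) and Ccdc33 (0.0105), and Anxa10 to a cDNA with no symbol (0.0211) and Rspo3 (0.0487), the last pair well above background on 3 arrays each. With 4 arrays, 19093 candidates and 1 sample in each place, such likeness is a description only, and no trefoil factor was among the nearest 2 genes of another.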

How the data were processed

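Per the labels' protocols, total RNA of 4 samples (2 per condition) was amplified and labelled with Cy3. Spot intensity came from Agilent Feature Extraction, version 10.7.1.1 per the file headers and 9.5.1.1 per the submitters' processing notes. The deposited processed signal is an intensity corrected for background within each array and not scaled between arrays, and the authors' flags mark spots well above background, saturated or outlying. The authors' deposited value table of the same arrays, which has the same median intensity of 32.97 in every column and no stated method, served as an alternative. With all 4 arrays on 1 slide, slide and scan could not be tested as batches.

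After removal of control spots and spots flagged as outliers, spots of a probe were averaged on the log2 scale. This left out 301 probes. From each log2 signal the 75th percentile over all non-control spots of its array was subtracted. A gene took the value of its probe with the highest mean. Genes read well above background by 2 or more arrays were fitted with limma 3.58.1 in R 4.3.3 (lmFit, eBayes), with treatment and line as terms, which leaves 1 residual and 2.97 prior degrees of freedom. The numbers 5 and 6 pair the samples because they name the same line, and deviations of same-line arrays from their condition means correlated at r = 0.498 over tested genes. A permutation test of 2 samples against 2 cannot go below p = 0.333 and was not used.

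A probe not well above background on the dim side gives a bound, against the higher of its own signal and the lowest signal well above background on that array. A p printed with a bound is that of the fitted values, not of the bound. The reference gene table held the accessions of 10 of the 12 probes, all with the same symbol. All 10 genes were named, and from each related list those that passed or had the largest change, up to 5. Beyond this rule Gkn2, Spdef, Ctsd, the neighbours by position and the cell type markers were named with their values known. The common floor is the highest of the 4 arrays' lowest signals well above background. The genes and lists were chosen with earlier results of these data known, so they are no independent evidence of a direction.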

Additional observations from a re-analysis of the deposited data

Results flagged for a closer look

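The log2 change of Muc6 was 0.27 in K6 and -1.36 in K5, a difference of 1.64 between the lines, and its sign was opposite in the lines. With 1 array per line and condition this difference was not tested. The first Gkn1 probe gave a signal well above background on 1 array, halofuginone K6, at a log2 signal of -3.68, while halofuginone K5 and both control arrays were not well above background. Gkn1 entered no test, and its second probe, with a log2 signal of -7.31 on the same array, was not well above background.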

How the results depend on the processing

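Leaving out line 5 or line 6 left 1 array per condition and no test, and the log2 changes then lay between -5.90 and 0.28 over the 8 genes. Tff1, Tff2, Tff3, Muc1 and Ctse stayed below 0 under all alternatives run. The fit with no replicate block (line dropped) called 0 of these 5 for halofuginone (adjusted p from 0.083 for Muc1 to 0.53 for Tff1). The calls were also 0 with no filter and with the percentile over probes measured on every array, and 3 with probes averaged. Over all genes the halofuginone calls, 1710 as reported, were 4994 with normexp, 4012 with the filter on all 4 arrays, 4200 with a trend in eBayes, and 0 with the percentile over probes measured on every array, with no filter and with no replicate block (6481, 15052 and 4492 at an unadjusted limma p under 0.05). For K6 against K5, 33 genes passed as reported. They were 921 with normexp, 149 with quantile normalization, 296 with median centring, 152 in the authors' table, 305 with the filter on all 4 arrays, 293 with a trend, 111 with a common floor, and 165 with the percentile over probes in place of spots, which was chosen after seeing the data. They were 0 with the percentile over probes measured on every array, no filter, no replicate block and probes averaged (2833, 3655, 798 and 2892 at an unadjusted p under 0.05). Of the 8 genes, 4 then passed with normexp, 3 with a trend, 2 each with median centring, the percentile over probes and the filter on all 4 arrays, and 1 each with quantile normalization, the authors' table and a common floor. Genes at least 2-fold lower in both lines were 5 in all 8 alternatives that give such a count. The median change of all genes shifted by over 0.1 with the percentile over probes measured on every array (-0.115) and with no filter (-0.34). The cause of these differences was not tested. Agr2, Gkn1, Muc5ac and Muc6 are limited by signal over background.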
